A study of Drosophila melanogaster with 4 samples.

Results

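The genes described here encode nuclear subunits of the mitochondrial respiratory chain and ATP synthase, together with duplicated copies whose symbols end in L. They were chosen by name: spots listed with exactly 1 gene symbol that starts with ND-, Sdh, UQCR, COX and a digit, or ATPsyn. The rule took 10 of the 2377 named genes, on 24 of 16896 spots, and 6 of the 10 end in L. In NCBI RefSeq's gene table of Drosophila melanogaster, 91 symbols follow the rule and 21 of them end in L, so most of the chain is not described by these values. A further 2 spots, listed with both CG18809 and COX6B, were left out because they name several genes.

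RNA of adult Oregon-R females, 10 to 20 days after emergence, was compared on 4 arrays with 2 colours each. The treated flies were sprayed in a Potter's tower, which coats insects evenly, with 2 mL of Piper nigrum (black pepper) extract at 0.9 mg/mL in 99% ethanol, and the control flies with 2 mL of 99% ethanol alone. Each pool held about 240 females sampled 4 h later, and the protocols describe no dissection, so many cell types stand in 1 value. The replicate pools are numbered 1 and 3, and each has 1 array with the extract in Cy3 and 1 with it in Cy5, so the 2 arrays of a pool are 1 replicate and n = 2. In such bulk RNA fewer cells of a type and less RNA per cell cannot be told apart.

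The respiratory chain moves electrons from NADH (complex I) and succinate (complex II) through complex III to oxygen at complex IV, and the proton gradient so made drives ATP synthase (complex V). Most of its subunits are encoded in the nucleus. In Drosophila many of these genes have a duplicate copy, and such copies are known for expression in the testis. Females have no testis, and a ratio between 2 colours gives no level, so neither the testis label nor the expression of any member in these females could be checked from these values.

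All values are log2 ratios as deposited, read as extract (channel 2) over ethanol (channel 1). Nothing in the sources states it, and the opposite reading, ethanol over extract, would reverse every sign. A deposit written as 1 dye over the other would need the 2 reverse-label arrays turned in sign, and such values are given beside the main ones as "turned". The same doubt touches every count above or below 0, and no gene is therefore said here to have risen or fallen. Over all spots the Pearson correlation between any pair of arrays lay between 0.0187 and 0.0881. Array medians lay within 0.00218 of 0 before centring.

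No member passed the limma test over all 13607 features (adjusted p under 0.05), where 6 features, or 0.0441%, did. At an unadjusted limma p under 0.05 the count was also 0 of 10, beside 7.34% of all features and 3.83% of the named genes. The adjusted limma p of the members ran from 0.777 to 0.997. Turned, 0 of 10 passed, with 0.0% of all features past the adjusted threshold and 4.75% at an unadjusted limma p under 0.05, where again no member stood. The 95% limma intervals together ran from -0.60 to 0.68, and each held 0. All 10 intervals lay inside a 2-fold difference either way (log2 of 1), which is also true of 98.9% of the named genes.

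**Figure D1:**
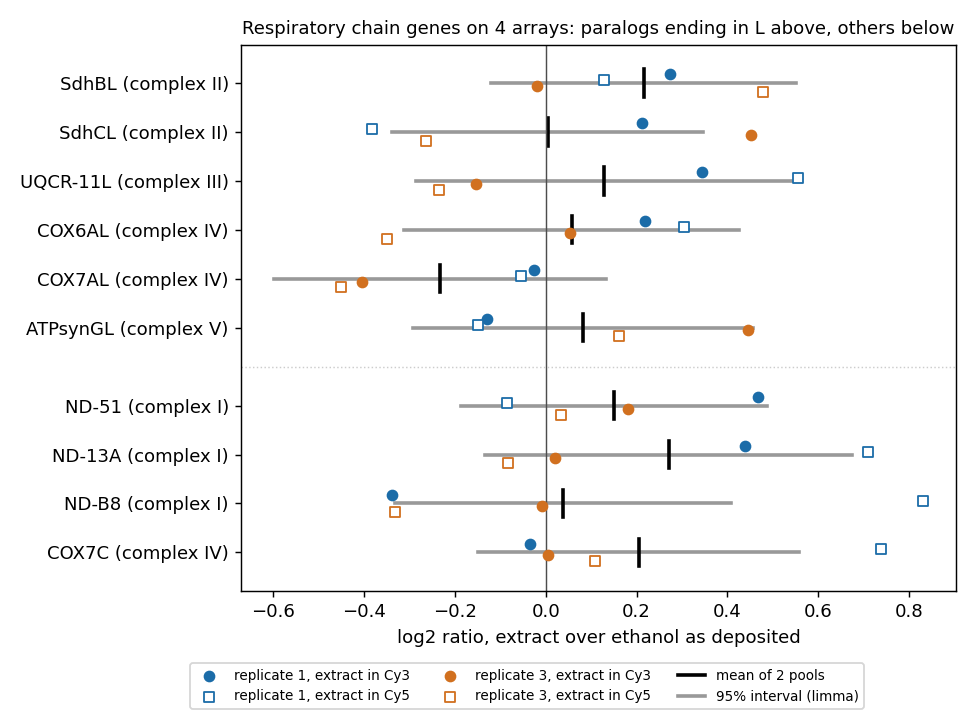
Log2 ratio (extract over ethanol as deposited, x axis) of each of the 10 genes on the 4 arrays, with paralogs ending in L above and the other members below; circles have the extract in Cy3, squares in Cy5, black bars are the mean of 2 pools and grey lines the 95% limma interval. All 10 intervals cross 0, and ND-13A, ND-B8 and COX7C each reach over 0.7 on the Cy5 array of replicate 1.

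Complex II is covered only by paralogs. SdhBL is the copy of SdhB, the iron-sulphur subunit of succinate dehydrogenase. It stood at 0.27 and 0.13 on the Cy3 and Cy5 arrays of replicate 1, and at -0.019 and 0.48 on those of replicate 3. The pools were close, at 0.20 and 0.23. The mean of 0.22 ± 0.15 (limma's moderated SE, n = 2 pools) did not pass the test (limma, adjusted p = 0.788). Every ± value here is such an SE. It draws mostly on the spread over all features, so it can be wide where the 2 pools of a gene are close. SdhBL was the paralog highest in mean ratio, and its turned mean was -0.088 ± 0.16.

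SdhCL is the copy of SdhC, a membrane anchor of the same complex. Its ratio was 0.21 on the Cy3 array and -0.38 on the Cy5 array of replicate 1, and 0.45 and -0.26 on those of replicate 3. Both pools thus had a positive Cy3 array and a negative Cy5 array, and the mean was 0.0039 ± 0.15. Turned, it stood at 0.30 in replicate 1 and 0.36 in replicate 3, with a mean of 0.33 ± 0.15 and a 95% interval of -0.013 to 0.67. This was the smallest unadjusted p of any member in either reading (limma, adjusted p = 0.962 when turned). The parent gene SdhC lies 15 genes away on the same chromosome in the RefSeq table.

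The 1 member of complex III is UQCR-11L, the copy of the accessory subunit UQCR-11. It lay at 0.34 and 0.55 on the Cy3 and Cy5 arrays of replicate 1, against -0.15 and -0.24 on those of replicate 3. The 2 pools did not overlap and had opposite signs, at 0.45 and -0.19, which gave a mean of 0.13 ± 0.18 (limma, adjusted p = 0.916). The standard error was the largest among the 10 members. UQCR-11L lies within the span of Acsl, a fatty acid-activating ligase, which stood at -0.15 ± 0.15.

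In complex IV, COX6AL and COX7AL copy accessory subunits of cytochrome c oxidase, and COX7C is itself such a subunit. COX6AL stood at 0.22 and 0.30 in replicate 1 and at 0.053 and -0.35 in replicate 3, on the Cy3 and Cy5 arrays in that order. Its pool means had opposite signs, 0.26 and -0.15, and their mean was 0.057 ± 0.16 (limma, adjusted p = 0.963). The parent gene of COX6AL is levy, known for a fly mutant with defects in cytochrome c oxidase.

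COX7AL was the 1 member below 0 in mean ratio and the 1 member with the same sign on all 4 arrays, where 16.8% of the named genes have 1 sign throughout. It lay at -0.025 and -0.0545 in replicate 1 and at -0.40 and -0.45 in replicate 3, so the arrays of a pool were close and the pools apart. Its mean of -0.23 ± 0.16 did not pass (limma, adjusted p = 0.788) and was 0.019 ± 0.15 when turned. Between COX7AL and its parent COX7A lie 2 genes in the RefSeq annotation. A spotted probe can bind transcripts of a close copy, which was not tested for any member. COX7A, like the parents of the other 5 paralogs, was not among the named genes here.

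COX7C lay near 0 on 3 arrays and far above on 1. It had -0.034 and 0.74 on the Cy3 and Cy5 arrays of replicate 1, and 0.0059 and 0.11 on those of replicate 3. The mean was 0.20 ± 0.16 (limma, adjusted p = 0.797), and 0.012 without the Cy5 array of replicate 1. Its turned mean was -0.22 ± 0.16. COX7C overlaps the gene oys in the RefSeq table, which stood at 0.080 ± 0.15.

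ATPsynGL, the copy of subunit g of ATP synthase, was the 1 member of complex V. It had -0.13 and -0.15 on the Cy3 and Cy5 arrays of replicate 1, against 0.45 and 0.16 on those of replicate 3. The pools stood on opposite sides of 0 without overlap, at -0.14 and 0.30, with a mean of 0.082 ± 0.17 (limma, adjusted p = 0.946). UQCR-11L and ATPsynGL were thus both split by pool, in opposite directions. The arrays of COX6AL, COX7AL and ND-13A did not overlap between pools either. The share of all features without such overlap is not given here, so the split is not said to be particular to these genes.

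The complex I members have no L in their symbols. ND-51 (NDUFV1 in human) is the flavoprotein that takes electrons from NADH. It stood at 0.47 and -0.084 in replicate 1 and at 0.18 and 0.034 in replicate 3, above 0 on 3 of 4 arrays. The pools were close, at 0.19 and 0.11, and the mean was 0.15 ± 0.15 (limma, adjusted p = 0.855). ND-51 kept its sign when turned, at 0.17 ± 0.15, but was 0.012 without the Cy3 array of replicate 1.

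ND-13A (NDUFS6 in human), an accessory subunit, had the highest mean ratio of the 10, at 0.27 ± 0.18 (limma, adjusted p = 0.777). Its values were 0.44 and 0.71 in replicate 1 and 0.019 and -0.083 in replicate 3, so 1 pool stood away from 0 and the other did not. The pool means were 0.57 and -0.032, and turned the mean was -0.042 ± 0.15. ND-13A overlaps CG4230, which stood at -0.29 ± 0.15.

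ND-B8 (NDUFA2 in human), another accessory subunit, varied most over the arrays, with a range of 1.17. It lay at -0.34 and 0.83 in replicate 1 and at -0.0091 and -0.33 in replicate 3. The mean of 0.038 ± 0.16 (limma, adjusted p = 0.980) became -0.25 without the Cy5 array of replicate 1. That was the 1 array above 0, as the other 3 lay below 0. The mean was also below 0 without the Cy3 array of replicate 3, at -0.043.

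In mean ratio 9 of the 10 lay above 0, beside 51.5% of the named genes, with a median of 0.10 beside 0.0058. The single pools did not share this. In replicate 1, 7 of 10 lay above 0 with a median of 0.22, and in replicate 3, 5 of 10 with a median of 0.013. The sign was the same in both pools for 4 of 10 members (SdhBL, COX7AL, COX7C and ND-51), beside 53.6% of the named genes. Turned, 5 of 10 lay above 0 and the median was -0.0067. The order of the mean ratios, from ND-13A at 0.27 down to COX7AL at -0.23, mostly did not hold between pools. Of 9 pairs of neighbours in this order, 1 (COX6AL over ND-B8) differed the same way in both pools, by 0.019 in the mean. The extremes, picked from these same means, kept their order: ND-13A lay above COX7AL by 0.61 in replicate 1 and 0.40 in replicate 3. Turned, ND-13A lay below COX7AL, at -0.042 against 0.019.

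The paralogs and the other members were then set against each other. In mean ratio 5 of 6 paralogs lay above 0 with a median of 0.0695, and 4 of 4 other members with a median of 0.18, a difference of -0.11. The difference was -0.22 in replicate 1 and -0.040 in replicate 3. An exact two-sided sign-flip permutation test over the 2 pools gave p = 0.5, the smallest such a design allows. It was -0.26 and -0.0265 without the Cy3 and Cy5 arrays of replicate 1, and -0.19 and -0.032 without those of replicate 3. Turned it was 0.17, with the opposite sign.

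Array by array the medians of the paralogs and the other members were 0.21 and 0.20 on the Cy3 array of replicate 1, and 0.017 and 0.013 on that of replicate 3. On these 2 arrays, which carry extract in Cy3, the medians differed by 0.0125 and by 0.0046. On the Cy5 arrays the paralogs lay lower, at 0.037 against 0.72 in replicate 1 and at -0.25 against -0.0245 in replicate 3. The gap was -0.69 and -0.23 there. The difference between the sets therefore lay on the arrays with the extract in Cy5, in both pools. The part of the dye in it was not tested.

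**Figure D2:**
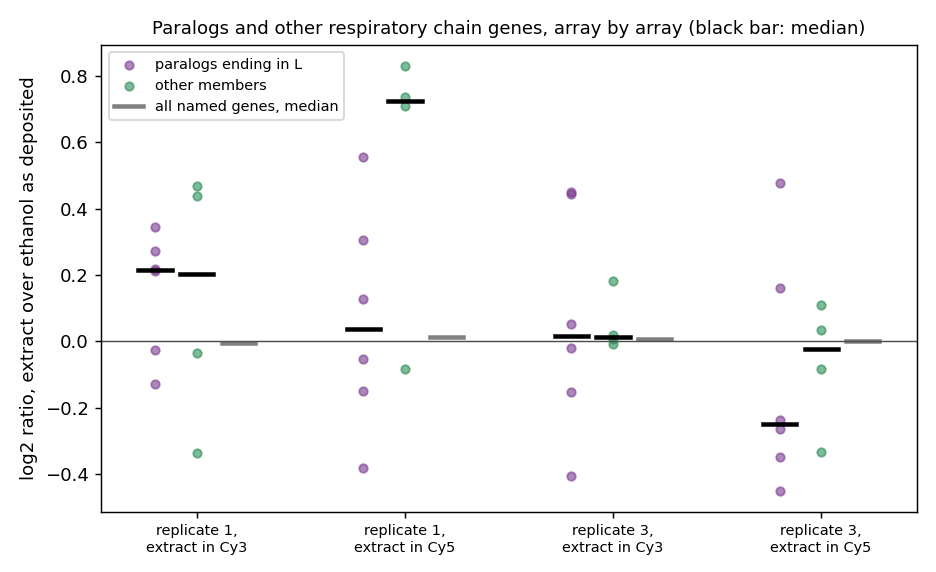
Log2 ratio (extract over ethanol as deposited, y axis) of the 6 paralogs ending in L and the 4 other members on each array (x axis), with black bars for their medians and grey bars for the median of all 2377 named genes. The sets lie together on the Cy3 arrays, and the other members lie higher on the Cy5 array of replicate 1, where their median is 0.72 and that of the paralogs 0.037.

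Much of this rests on the Cy5 array of replicate 1. There ND-B8 at 0.83, COX7C at 0.74 and ND-13A at 0.71 stood at percentiles 98.6, 98.0 and 97.9 of the named genes, while ND-51 at -0.084 stood at percentile 36.2. Among paralogs UQCR-11L reached percentile 95.8 on it, and SdhCL lay at percentile 10.2. On the Cy3 array of the same pool, made from the same RNA, ND-B8 stood at percentile 12.4, COX7C at 45.6 and ND-13A at 91.8. ND-13A was thus high on both arrays of replicate 1, and the other 2 on 1 of them. Without the Cy5 array of replicate 1, 8 of 10 members lay above 0 with a median of 0.081.

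Adjacent spots of a gene tell how well its ratio repeated within an array, and not how well arrays of the same RNA matched. Each named gene is spotted as adjacent pairs, and the gap between the spots of a pair was taken as its absolute log2 difference on an array. Over all pairs and arrays the median gap was 0.36 in the paralogs (7 pairs) and 0.093 in the other members (5 pairs), with 0.25 over the 2833 pairs of all named genes. It was wider in the paralogs on 4 of 4 arrays: 0.22 against 0.031 and 0.33 against 0.077 on the Cy3 and Cy5 arrays of replicate 1, and 0.34 against 0.24 and 0.48 against 0.099 on those of replicate 3. The difference was 0.24 in replicate 1 and 0.26 in replicate 3 (exact two-sided sign-flip permutation test over 2 pools, p = 0.5, the smallest possible). Gaps need no direction of the ratio, so this comparison does not depend on how the arrays are turned. Over all named genes the median gap was 0.30 and 0.24 on the Cy3 and Cy5 arrays of replicate 1. On those of replicate 3 it was 0.185 and 0.28. The paralogs thus had a narrower gap than the named genes on the Cy3 array of replicate 1. The other members had a wider one than the named genes on the Cy3 array of replicate 3.

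COX7AL had the widest gap, with a median of 1.13 at percentile 99.9 of the named genes. Its spots stood at -0.77 and 0.72 on the Cy3 array of replicate 1, at 0.41 and -0.52 on its Cy5 array, and at -1.12 and 0.22 on the Cy5 array of replicate 3. The spots had opposite signs there, and the same sign only on the Cy3 array of replicate 3, at -0.29 and -0.52. The 1 sign that COX7AL held over 4 arrays is therefore a sign of averages, not of spots. With COX7AL left out, a choice made after its values were seen, the paralogs' median gap was 0.34.

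At the other end, ND-51 had a median gap of 0.023, at percentile 0.34, and COX7C of 0.058, at percentile 2.57. The spots of COX7C read 0.78 and 0.69 on the Cy5 array of replicate 1 and lay between -0.046 and 0.12 on the other 3. Its high ratio on that array was thus seen by both spots, as was that of ND-B8, at 0.82 and 0.84.

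The remaining paralogs had median gaps of 0.27 in SdhCL, 0.30 in ATPsynGL, 0.36 in SdhBL, 0.42 in UQCR-11L and 0.45 in COX6AL. ND-13A had 0.20 and ND-B8 0.26, so every paralog lay above every other member in median gap. Of 28 readings of a pair on an array the paralogs' spots had the same sign in 17 (60.7%), and the other members' in 14 of 20 (70%), beside 60.8% over all named genes. The other members' spots shared their sign in 5 of 5 pairs on each array of replicate 1, and in 1 and 3 of 5 pairs on the Cy3 and Cy5 arrays of replicate 3.

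**Figure D3:**
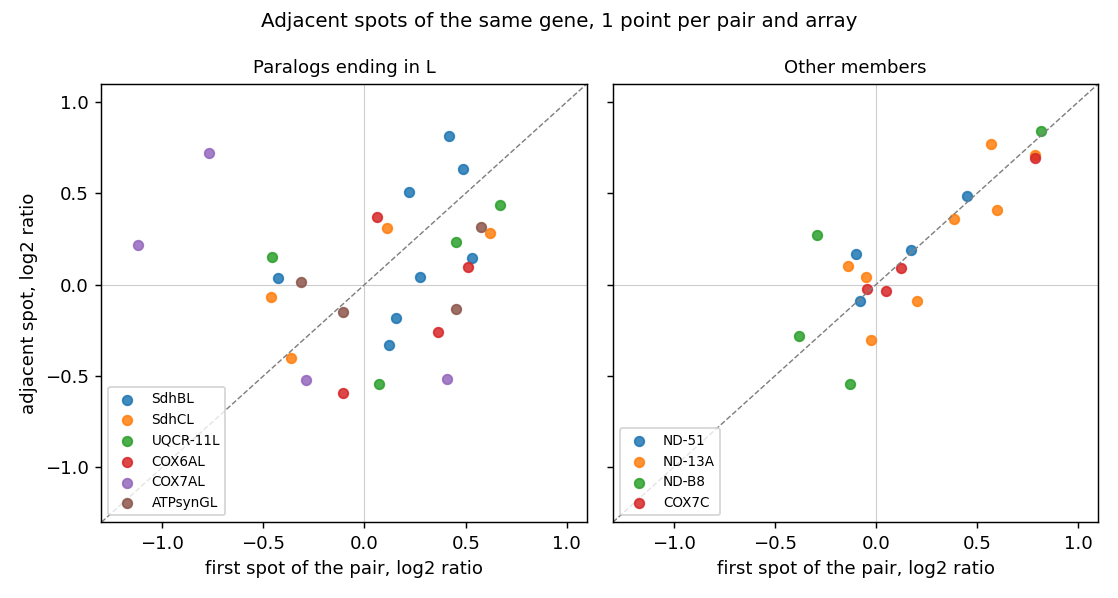
Log2 ratio of the first spot (x axis) against its adjacent spot (y axis) for each pair of spots on each array, in the 6 paralogs (left) and the 4 other members (right), with a dashed line where the spots are equal. The other members lie closer to the line, with a median gap of 0.093, than the paralogs, with a median gap of 0.36 and COX7AL farthest off. On the Cy3 array of replicate 3 the other members' median gap was 0.24, beside 0.185 over all named genes.

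SdhBL and ND-13A were each spotted as 2 pairs at different places of the array, which gives a second reading. The 4 spots of ND-13A read 0.57 to 0.79 on the Cy5 array of replicate 1 and 0.36 to 0.60 on its Cy3 array, all above 0. In replicate 3 they lay on both sides of 0, from -0.14 to 0.20 and from -0.30 to 0.042. Separate spots of ND-13A thus shared their sign in replicate 1 and not in replicate 3, and its pairs had the same sign in 5 of 8 readings, as did those of SdhBL. The 4 spots of SdhBL ran from -0.33 to 0.51 on the Cy5 array of replicate 1, and on the Cy5 array of replicate 3 all were above 0, from 0.14 to 0.81. Signal over background was not used, so how bright these spots were is not known, and its part in the gaps was not tested.

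Other mitochondrial genes were read from 7 lists, which held 38 measured genes. None passed the limma test over all features, and 3 had an unadjusted limma p under 0.05 (beside 7.34% of all features and 3.83% of the named genes). Of the 38, 24 lay above 0 (beside 51.5% of the named genes) with a median of 0.0645. Turned, 1 had an unadjusted limma p under 0.05 (beside 4.75% of all features and 50 of the 2377 named genes). In that reading 18 lay above 0 with a median of -0.014. Of 6 genes listed under the tricarboxylic acid cycle and pyruvate oxidation, pathways that feed the chain with electrons, 5 lay above 0, and also 5 when turned. The 6 include bb8, at 0.20, which is also on the testis list below. These values do not show that bb8 belongs to these pathways, and it counts toward both the 5 and the median. The median of the 6 was 0.19, with 0.18 in replicate 1 and 0.19 in replicate 3, and 0.0635 when turned. It was 0.086 without the Cy3 array of replicate 1, and on the Cy5 array of that replicate alone 2 of 6 lay above 0, with a median of -0.015. The highest was muc, the acetyltransferase of the pyruvate dehydrogenase complex, at 0.46 ± 0.17 (limma, adjusted p = 0.612). It had 0.62 and 0.85 in replicate 1 and 0.26 and 0.10 in replicate 3, with no array below 0; its turned mean was -0.016. The lowest was Scsalpha1, of succinyl-CoA synthetase, at -0.0235 ± 0.16.

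Among 4 assembly factors 1 lay above 0, with a median of -0.096; turned, 2 did, with a median of 0.0545, and in replicate 3 alone 3 did, with a median of 0.13. The 1 was Ttc19, a complex III factor, at 0.38 ± 0.16 (limma, adjusted p = 0.642) and -0.026 when turned. Bcs1, which inserts the Rieske iron-sulphur protein into complex III, lay lowest at -0.31 ± 0.26, and at 0.15 when turned. Bcs1 was split by pool, with 0.27 and 0.41 in replicate 1 against -0.59 and -1.32 in replicate 3. Ttc19 was not, with 0.24 in replicate 1 and 0.53 in replicate 3.

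Of 7 carriers and porins 6 lay above 0 (3 when turned), from Slc25A46b at -0.059 to Dic3, a dicarboxylate carrier, at 0.33 ± 0.16, with a median of 0.067. The median was -0.044 when turned, and 0.17 and 0.14 without the Cy3 and Cy5 arrays of replicate 3. Genes of mitochondrial DNA, biogenesis and dynamics numbered 9, with 5 above 0 and a median of 0.025 (4 and -0.012 when turned), from Miro at -0.12 to the protease subunit gene ClpX at 0.26. In protein import 5 of 8 lay above 0 with a median of 0.0485 (4 and 0.021 when turned, and 2 in replicate 3 alone), from Tom40, the pore of the outer membrane, at -0.14 to tomboy20 at 0.37 ± 0.15 (limma, adjusted p = 0.642; 0.077 when turned). The gene tomboy20, a copy of the import receptor Tom20, had 1.02 and -0.0915 in replicate 1 and -0.12 and 0.68 in replicate 3. Its arrays of a pool differed by more than its pools. The mitochondrial ribosome had 3 genes, 2 of them above 0 (0 when turned, and 1 in replicate 3 alone), from mRpL16 at -0.24 to mRpL13 at 0.17. Of chain genes under other symbols, Gpo3, of the mitochondrial glycerophosphate oxidase family, was the 1 measured and lay at -0.23 ± 0.15, and at -0.057 when turned.

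Genes known for expression in the testis formed another list. Of 20 measured, none passed the limma test over all features, 3 had an unadjusted limma p under 0.05 (beside 7.34% of all features and 3.83% of the named genes) and 10 lay above 0, with a median of 0.0036. Turned, 0 of 20 had an unadjusted limma p under 0.05 (beside 4.75% of all features), and 11 lay above 0. They ran from Prosalpha4T1, a proteasome copy, at -0.27 ± 0.15 to betaNACtes3 at 0.65 ± 0.15 (limma, adjusted p = 0.327), and ocn stood at 0.39 ± 0.16. Turned, betaNACtes3 stood at -0.21, ocn at 0.072 and Prosalpha4T1 at 0.12. The genes tomboy20, bb8, Hsp60B and Hsp60C are on this list and on a mitochondrial list as well. The median gap between adjacent spots was 0.29 per gene over the testis genes, beside 0.39 over the 6 paralogs, 0.13 over the 4 other members and 0.25 over all named genes. Of 4 ovary genes 2 lay above 0 (4 when turned), from pum at -0.28 to exu at 0.22.

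**Figure D4:**
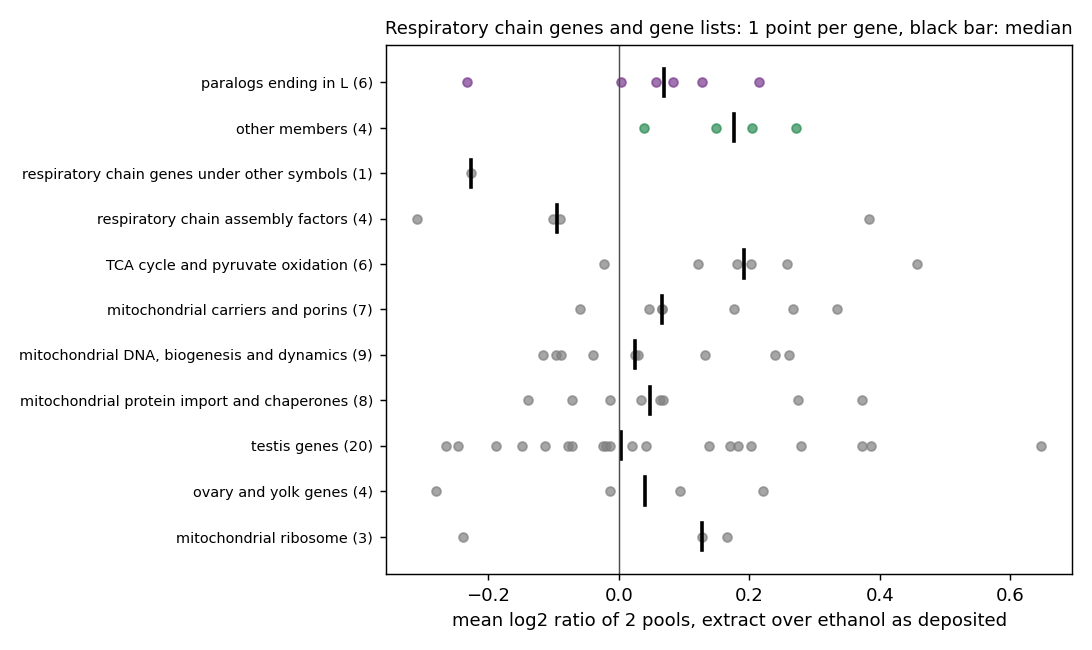
Mean log2 ratio of 2 pools (extract over ethanol as deposited, x axis) for each gene of the 6 paralogs, the 4 other members and 9 gene lists (y axis, number of measured genes in brackets), with black bars for medians. The 6 genes listed under the tricarboxylic acid cycle and pyruvate oxidation have a median of 0.19. The testis genes lie on both sides of 0, from -0.27 to 0.65.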

How the data were processed

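The log2 ratios were deposited by the authors, 1 per spot on 4 arrays, with no missing value. Scanner, background correction, normalization, log base (taken as 2) and numerator are not given in the sources used here. Each array was centred on its median. Symbols came from the platform annotation (5666 spots with 1 gene, 152 with several, 11078 with none), and all 5666 matched RefSeq gene numbers with 0 symbols changed. Spots of a gene were averaged per array and the dye-swapped arrays per pool, giving 13607 features. The ratio was tested against 0 with lmFit and eBayes (limma 3.58.1, R 4.3.3), two-sided, with Benjamini-Hochberg adjustment over all features. The fit had 1 residual and 8.19 prior degrees of freedom and a median standard error of 0.153; the number of arrays limits the precision. Flies of a pool were treated at the same time, per the labels. A limma p-value here sets the mean ratio of only 2 pools against 0. Its standard error is moderated by the spread between pools over all features. The code was tested on simulated data.

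The members and lists were chosen with earlier results of these data known. Acn, mib and ATPCL were taken off their lists because they are not of that function. Every member is named; of each list, genes at an unadjusted p under 0.05 and otherwise the highest and lowest. The gaps between adjacent spots were examined after the values had been seen. Alternatives turned the reverse-label arrays, left out arrays or pools, and changed scaling, centring, spot summary, prior, features and the unit of the fit.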

Additional observations from a re-analysis of the deposited data

Results flagged for a closer look

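Of 40 genes and medians compared over the 4 arrays, 3 had 1 array far from the other 3 by Dixon's 95% critical value, where chance gives about 1 in 20, or 2. They hold 2 genes, neither of them a member. Gpo3, which is also the only gene behind the median of chain genes under other symbols, stood at -0.436 on the Cy3 array of replicate 3, with the others between -0.184 and -0.133. The ovary gene pum stood at -0.524 on the Cy5 array of replicate 1, with the others between -0.218 and -0.186.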

How the results depend on the processing

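The count of members past the limma test, and at an unadjusted limma p under 0.05, was 0 under every alternative run with a test. The 6 calls over all features became 0 with the reverse-label arrays turned, 42 with arrays scaled to equal spread, 10 with named genes alone and 12 on single arrays under a replicate block (correlation between arrays of a pool -0.244). Leaving out 1 array gave 0 to 11, with 0 without the Cy3 array of replicate 3 and 11 without the Cy5 array of replicate 1. Members above 0 numbered 9, and 5 when turned, 6 to 9 with 1 array left out, and 5 and 7 without replicates 1 and 3. The paralogs minus the other members, -0.11, became 0.17 when turned, -0.22 to -0.040 with a pool left out and -0.26 to -0.0265 with an array left out. Turned, the sign reversed in ND-13A (-0.042), ND-B8 (-0.21), COX7C (-0.22), SdhBL (-0.088), UQCR-11L (-0.032) and COX7AL (0.019). With a pool left out, the values crossed 0 in ND-13A (-0.032 to 0.57), ND-B8 (-0.17 to 0.25), SdhCL (-0.0857 to 0.093), UQCR-11L (-0.19 to 0.45), COX6AL (-0.15 to 0.26) and ATPsynGL (-0.14 to 0.30). With an array left out, they reversed in ND-B8 (-0.25 without the Cy5 array of replicate 1, -0.043 without the Cy3 array of replicate 3), SdhCL (-0.175 and -0.14 without the Cy3 arrays of replicates 3 and 1) and COX6AL (-0.044 without the Cy3 array of replicate 3). The signs of ND-51, COX7C, SdhBL and COX7AL held with any 1 array or pool left out. Scaling, centring, the median of spots, the prior, named genes alone and the replicate block changed the sign of 0 of 10 members. List medians changed sign when turned in assembly factors (0.0545), carriers (-0.044), mitochondrial DNA genes (-0.012) and the mitochondrial ribosome (-0.14). The cause of these changes was not tested. With 1 pool left out there is no residual degree of freedom, so those are values with no test.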
